A study of Mus musculus with 4 samples.

Results

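The 5 genes Sphk1, Sphk2, Sgpl1, Sgpp1 and Sgpp2, which make and break down sphingosine 1-phosphate (S1P), were followed through the called ATAC-seq peaks of 4 mouse libraries. Every peak that overlapped a gene body extended by 10 kb was taken, and peaks from any library that met by 1 bp or more were joined into regions. This gave 10 of the 45299 merged regions of the series: 4 around Sphk2, 3 at Sgpl1, 2 at Sgpp1, 1 at Sphk1 and 0 at Sgpp2. The libraries came from myeloid-derived suppressor cells (MDSCs), immature myeloid cells that hold back T cell responses, which had been sorted as Gr1+CD11b+ cells from the ascites of mice. All mice had received EL4, a lymphoma line of mouse T cells, 14 days earlier. The groups were WT mice (2 libraries) and Sphk2 KO mice (2 libraries). The titles call the 2 libraries of each group biological replicates. The labels give neither age, sex, strain nor the removed part of Sphk2. They also do not say how many animals stand behind a library, so the spread between the 2 libraries of a group may be partly technical. ATAC-seq marks open chromatin by the insertion of adapters with the Tn5 transposase, here from 20000 cells and 40% of the recommended enzyme.

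S1P is a signalling lipid that acts on receptors at the cell surface and, within cells, on nuclear and mitochondrial proteins. The kinases encoded by Sphk1 and Sphk2 make it from sphingosine. SPHK1 works mainly in the cytosol and at the plasma membrane, whereas SPHK2 is also found in the nucleus and in mitochondria. The phosphatases encoded by Sgpp1 and Sgpp2 turn S1P back into sphingosine in the endoplasmic reticulum, and the lyase encoded by Sgpl1 cleaves it for good into a fatty aldehyde and phosphoethanolamine, a precursor of phospholipids. In myeloid and lymphoid cells the level of S1P is best known for guiding movement between tissue and blood.

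The depth and length of the peak lists differed between the genotypes. Retained fragments were 33859480 (WT replicate 1), 34443062 (WT replicate 2), 25877428 (Sphk2 KO replicate 1) and 27686223 (Sphk2 KO replicate 2), and the lists held 31507, 31843, 20759 and 27446 peaks. Where 4 values follow each other below, they keep this order of libraries. The caller's −log10 q, pileup and fold enrichment are the authors' own values for each peak and are used here to describe and rank peaks within a library. A peak no further than 1 kb from a listed start was found at 48.9%, 49.9%, 43.5% and 48.2% of all 21883 protein-coding genes. Of 8 granulocytic MDSC markers, 7, 6, 6 and 7 showed such a start peak. Itgam, which encodes CD11b, was among them in all 4 libraries, and Ly6g, part of the Gr1 epitope, had none in any. Of 7 monocytic markers, 5, 6, 2 and 3 had such a peak, and of 10 T cell markers, which EL4 cells could carry, 1, 4, 1 and 1 did. The B cell, NK cell and mesothelial or epithelial lists had none. Among 4 macrophage markers 2, 2, 1 and 1 had a start peak, and among 4 erythroid markers 1 in each library (Klf1). Whether the makeup of the sorted cells had a part in the results below was not tested, and in such bulk libraries fewer cells with an open region and a less open region in each cell cannot be told apart.

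The sequences around the gene starts are shown first, because the results turn on which starts carried a peak. Each runs 5′ to 3′ from 250 bases before to 50 bases after a start listed by RefSeq (GRCm38.p6, the assembly also called mm10), and all 5 genes had an entry. Capitals mark matches, on either strand, to 8 short motifs listed in the next paragraph.
Sphk2 upstream start, chr7:45717953-45718252, minus strand: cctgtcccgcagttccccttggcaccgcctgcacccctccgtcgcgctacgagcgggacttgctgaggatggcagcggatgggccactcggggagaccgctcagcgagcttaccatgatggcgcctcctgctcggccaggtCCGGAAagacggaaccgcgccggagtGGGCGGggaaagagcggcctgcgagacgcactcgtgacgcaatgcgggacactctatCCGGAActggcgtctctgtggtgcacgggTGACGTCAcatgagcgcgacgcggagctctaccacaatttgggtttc
Sphk2 internal start, chr7:45715158-45715457, minus strand: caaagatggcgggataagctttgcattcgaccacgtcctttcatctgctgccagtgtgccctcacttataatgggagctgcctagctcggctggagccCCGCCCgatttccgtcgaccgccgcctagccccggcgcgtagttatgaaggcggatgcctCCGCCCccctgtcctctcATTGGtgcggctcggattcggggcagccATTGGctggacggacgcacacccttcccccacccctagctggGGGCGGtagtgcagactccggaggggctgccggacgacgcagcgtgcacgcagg
Sgpl1 start, chr10:61147635-61147934, minus strand: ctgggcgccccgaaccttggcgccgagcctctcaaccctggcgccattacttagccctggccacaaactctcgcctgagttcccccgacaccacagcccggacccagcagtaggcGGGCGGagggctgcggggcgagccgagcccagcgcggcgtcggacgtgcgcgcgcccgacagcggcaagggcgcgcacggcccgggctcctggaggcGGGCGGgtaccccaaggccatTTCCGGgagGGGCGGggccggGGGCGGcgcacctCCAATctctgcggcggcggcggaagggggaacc
Sgpp1 start, chr12:75735680-75735979, minus strand: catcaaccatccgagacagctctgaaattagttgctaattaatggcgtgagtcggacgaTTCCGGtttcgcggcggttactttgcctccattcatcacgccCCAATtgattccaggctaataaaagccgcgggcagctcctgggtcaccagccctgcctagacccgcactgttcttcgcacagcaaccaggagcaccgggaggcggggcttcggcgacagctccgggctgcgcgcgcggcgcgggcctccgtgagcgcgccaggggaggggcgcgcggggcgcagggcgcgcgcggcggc
Sgpp2 start, chr1:78310096-78310395, plus strand: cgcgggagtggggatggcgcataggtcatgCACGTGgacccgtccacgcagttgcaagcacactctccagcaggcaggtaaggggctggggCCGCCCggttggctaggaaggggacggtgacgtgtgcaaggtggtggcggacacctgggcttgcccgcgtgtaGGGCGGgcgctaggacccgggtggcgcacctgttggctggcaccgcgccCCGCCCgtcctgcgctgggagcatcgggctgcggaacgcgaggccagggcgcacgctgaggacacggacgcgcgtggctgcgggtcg
Sphk1 second of its listed starts, chr11:116531587-116531886, plus strand: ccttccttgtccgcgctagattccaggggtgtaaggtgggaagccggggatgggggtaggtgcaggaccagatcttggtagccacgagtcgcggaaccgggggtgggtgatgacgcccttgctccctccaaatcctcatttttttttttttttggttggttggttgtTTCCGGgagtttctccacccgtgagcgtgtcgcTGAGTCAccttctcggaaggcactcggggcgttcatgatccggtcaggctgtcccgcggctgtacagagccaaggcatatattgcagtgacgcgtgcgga

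The motifs searched were the Sp/KLF GC box GGGCGG, the NF-Y box CCAAT, the ATF/CREB palindrome TGACGTCA, the E-box CACGTG, the ETS core CCGGAA, the PU.1 motif GAGGAAGT, the AP-1 motif TGANTCA and the C/EBP motif TTGCNNAA. They were chosen with these sequences known, and 0 matches to different motifs overlapped in the member windows. Among all 32851 start windows of this length, 35.7% held the GC box, 37.4% the CCAAT box, 1.79% the palindrome, 7.15% the E-box, 14.9% the ETS core, 3.20% the PU.1 motif, 7.81% the AP-1 motif and 10.8% the C/EBP motif. With the start base counted as 0, the upstream Sphk2 window held the palindrome from base 3, ETS cores from -26 and -109 and a GC box from -83. Its internal start held 3 GC boxes and 2 CCAAT boxes. The Sgpl1 start held 4 GC boxes, an ETS core and a CCAAT box, the Sgpp1 start an ETS core and a CCAAT box, and the Sgpp2 start 3 GC boxes and an E-box. The Sphk1 start shown held an ETS core and the AP-1 motif, and no member window held the PU.1 or the C/EBP letters. The CpG dinucleotides in these windows numbered 33 and 27 at the upstream and internal Sphk2 starts, 38 at Sgpl1, 36 at Sgpp1 and 34 at Sgpp2. The 5 listed Sphk1 starts had 6, 21, 21, 14 and 15, against a median of 7 over all windows.

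Sphk2 was the only member with a region called in both libraries of 1 genotype and in neither of the other. It lies on the minus strand of chromosome 7 from 45709463 to 45718002, and RefSeq lists 2 starts for it, 45718002 and, 2795 bp further into the gene, 45715207. The upstream start was under a peak in all 4 libraries. The internal start was under a peak in each Sphk2 KO library but not in WT. Because Sphk2 is the gene removed in the KO mice, these calls concern the targeted locus itself, and a peak list shows neither transcripts nor the extent of a deletion.

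The region over the internal start spanned 45715043 to 45716683 (1641 bp), inside the Sphk2 body. In Sphk2 KO replicate 1 its peak had a −log10 q of 26.4, a fold enrichment of 4.84 and rank 7359 in the list. In replicate 2 the values were 42.2, 4.57 and rank 8738, so in both lists it stood in the better-ranked part. The WT libraries had no peak there at the authors' threshold, a −log10 q of 1.30. The region also covers 45715467, where the gene-table record of Rpl18 begins. Rpl18 encodes a protein of the large ribosomal subunit and is read in the opposite direction, so 45715467 is the upstream end of its record. The listed Rpl18 start, 45718071, lies outside the region. The peaks here therefore cannot be assigned to Sphk2 alone. The peaks of the 2 Sphk2 KO libraries were broad, 1263 and 1641 bp, with summits 731 bp apart. Counted along the gene from the internal start, the summit was at -842 bp in replicate 1 and at -111 bp in replicate 2, where a minus sign means upstream. When windows of 250 bp around summits were merged in place of whole peaks, no Sphk2 KO-only region remained at this gene.

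Calls of this kind were rare in the series. Regions called in each Sphk2 KO library but not in WT (Sphk2 KO-only) made up 0.605% of all merged regions, and those called in each WT library but not in Sphk2 KO (WT-only) 5.43%. Among the 10 member regions, 1 was of the first kind and 0 of the second. A Sphk2 KO-only region fell in 1.01% of the windows of 21883 protein-coding genes. RefSeq starts in at least 2 separate regions were found for 204 genes, and Sphk2 was the single gene (0.49%) with one start called in all 4 libraries and another called only in Sphk2 KO. The WT-only counterpart occurred at 10 of these genes (4.9%). Sphk2 is among the 204 only through its Sphk2 KO peaks, and the comparison takes up the pattern already seen there. It describes how rare that pattern was and lends it no support. Of the 274 Sphk2 KO-only regions, 15 (5.47%) covered any listed gene start, beside 9.07% of WT-only regions and 42.6% of regions called in all 4 libraries.

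**Figure D1:**
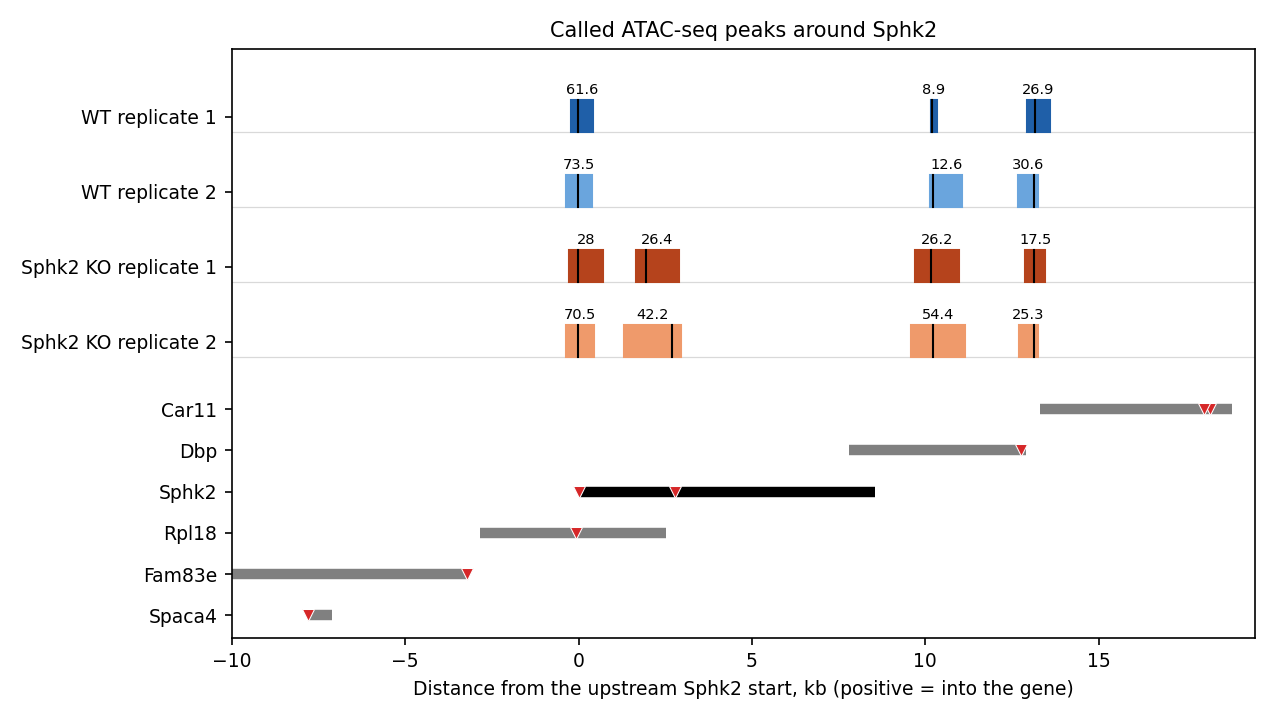
Called peaks (coloured bars, black line = summit, number = −log10 q) in the 4 libraries by distance in kb from the upstream Sphk2 start, above the gene records (black Sphk2, grey neighbours) and listed starts (red triangles). Peaks over the internal Sphk2 start appear in each Sphk2 KO library (26.4 and 42.2) but not in WT.

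The region over the upstream start was shared with Rpl18. It spanned 45717303 to 45718352 and was called in all 4 libraries, as were 37.5% of all merged regions. The listed Rpl18 start lies 69 bp from the Sphk2 start, on the other strand. Summits lay at -25 to -28 bp from the Sphk2 start in the 4 libraries, between both starts, so the peak cannot be assigned to either gene. The −log10 q was 61.6 and 73.5 (WT) against 28.0 and 70.5 (Sphk2 KO). Sphk2 KO replicate 1 was the low library, and replicate 2 fell between the WT values. The fold enrichment was 9.97 and 9.80 (WT) against 5.0 and 5.91 (Sphk2 KO), without overlap, while the pileup was 97, 118, 79 and 170 fragments.

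To set libraries of different depth side by side, the 16973 regions called in all 4 libraries were ranked within each library, rank 1 being the best. By −log10 q the region over the Sphk2 and Rpl18 starts ranked 4813 and 4436 (WT) against 6994 and 5648 (Sphk2 KO), so both WT ranks were better. By fold enrichment the gap was wider, with ranks of 5310 and 4765 against 12802 and 12993. By pileup the order turned, with 4931 and 4691 in WT against 3967 and 3129 in Sphk2 KO. The direction at this start thus depended on whether the height of the peak or its excess over the local background was ranked.

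That local background differed between the genotypes at Sphk2. The caller takes it from the fragment coverage in the 10000 bp around a position, and it was worked back here from the pileup and the fold enrichment and divided by the lowest value in the same list. At the region over the upstream start it was 2.50 and 2.72 times the lowest value in WT, against 5.03 and 8.0 times in Sphk2 KO. The Sphk2 KO mean was 2.49 times the WT mean, a log2 difference of 1.32 where the SD between libraries was 0.0852 in WT and 0.474 in Sphk2 KO (n = 2 each). Of the 16973 shared regions, 12 (0.0707%) had a ratio of at least 2, and 6 (0.0354%) had one as high as this. The other 5 were 3 regions in Il1r2, a decoy receptor for interleukin 1, and 2 regions in Coa4, a cytochrome c oxidase assembly factor, named after their values had been seen. The 10 kb around this start include the Sphk2 KO-only region. This measure was chosen after the peaks had been seen.

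**Figure D2:**
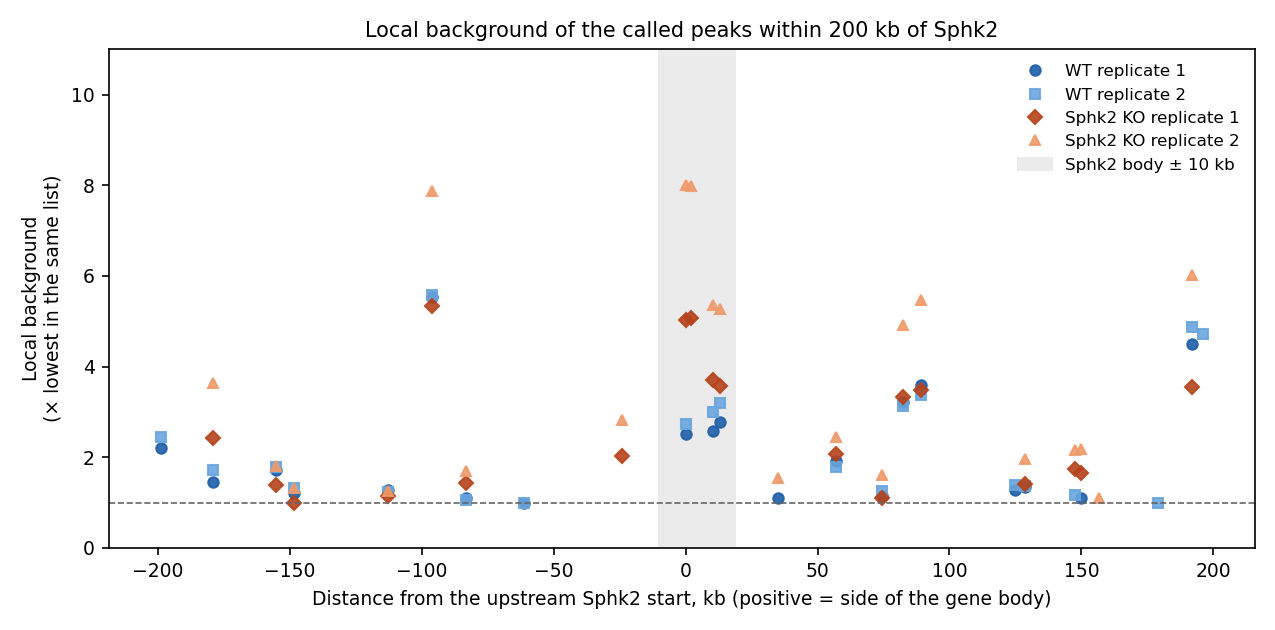
Local background of each called peak, as a multiple of the lowest in the same list (dashed line), by distance in kb from the upstream Sphk2 start, 1 symbol per library. Within the shaded Sphk2 window both Sphk2 KO libraries lie above both WT libraries at each of the 3 shared regions, and at the start itself at 5.03 and 8.0 against 2.50 and 2.72.

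The remaining regions of the Sphk2 window lie beyond the end of the gene, at neighbouring genes. The first, 45706859 to 45708424, is inside Dbp, which encodes a transcription factor of the circadian clock and whose record overlaps that of Sphk2 by 741 bp. Its −log10 q was 8.90 and 12.6 (WT) against 26.2 and 54.4 (Sphk2 KO). Its fold enrichment was 3.67 and 3.76 against 5.57 and 6.30. Both Sphk2 KO values lay above both WT values on each scale, and the ranks among shared regions were 15347 and 14834 in WT against 7360 and 7178 in Sphk2 KO. The Sphk2 KO ranks were also the better ones by fold enrichment and by pileup. The peaks were wider in Sphk2 KO, at 1273 and 1566 bp against 192 and 912 bp.

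The other, 45704400 to 45705339, covers the listed start of Dbp (45705247) and the end of Car11 (45704687), a gene of the carbonic anhydrase family. Its −log10 q was 26.9 and 30.6 (WT) against 17.5 and 25.3 (Sphk2 KO). Its fold enrichment was 5.94 and 5.54 against 4.64 and 4.33, so on both scales the WT values were higher, without overlap. Among shared regions the ranks by −log10 q, 9956 and 10133 (WT) against 9643 and 11717 (Sphk2 KO), overlapped. By fold enrichment both WT ranks were better (12477 and 13058 against 13613 and 15538), and by pileup both Sphk2 KO ranks were (6795 and 8011 against 8201 and 8063). The local background was higher in both Sphk2 KO libraries at each of these regions, with 2.58 and 3.01 against 3.70 and 5.35 inside Dbp and 2.77 and 3.20 against 3.56 and 5.26 at its start. The regions inside Dbp and at its start share part of the 10 kb from which the caller takes it. Their summits lay about 10.2 and 13.1 kb from the upstream Sphk2 start. With 10 kb centred on each summit, the region over the Sphk2 and Rpl18 starts therefore shares none of it with them. Over all shared regions 8.83% had a higher local background in both Sphk2 KO libraries, and 7.17% in both WT libraries. A ratio of the Sphk2 KO mean to the WT mean as high as that inside Dbp was found at 55 shared regions (0.324%). One as high as that at the Dbp start was found at 142 (0.837%). At 12 further shared regions within 200 kb of the start, the log2 difference ran from -0.13 to 0.93 with a median of 0.27, against a median of 0.08 over all shared regions.

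Sgpl1, the lyase gene, had the start peak with the highest −log10 q and pileup of the 5 genes in every library. By fold enrichment the peak over the Sphk2 and Rpl18 starts was higher in both WT libraries, and that of Sgpp1 in Sphk2 KO replicate 2. The gene lies on the minus strand of chromosome 10 from 61098642 to 61147684, and the region over its only listed start spanned 61146209 to 61148006. The −log10 q was 105 and 120 (WT) against 58.0 and 124 (Sphk2 KO), with Sphk2 KO replicate 1 the low library. The fold enrichment was 9.81 and 9.05 (WT) against 8.42 and 8.68 (Sphk2 KO), and the width was nearly the same throughout, from 1754 to 1798 bp. The ranks among shared regions were 1981 and 1846 (WT) against 2931 and 2543 (Sphk2 KO). Both WT ranks were better by −log10 q and by pileup, whereas by fold enrichment the ranks of the genotypes overlapped. The local background overlapped as well, at 4.72 and 5.37 (WT) against 3.84 and 7.04 (Sphk2 KO).

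Inside Sgpl1 there were 2 weak regions. The first, 61135083 to 61135649, about 12 kb into the gene, was called in WT replicates 1 and 2 (−log10 q 2.98 and 4.11) and in Sphk2 KO replicate 2 (5.07), and not in Sphk2 KO replicate 1. The second, 61114271 to 61114472, was called in WT replicate 2 alone (2.90). Their local background was at the lowest value of each list. The window also reaches Pcbd1, and no peak was called there.

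Sgpp1, the first of the phosphatase genes, had a weaker start peak with a wide spread in Sphk2 KO. The gene lies on the minus strand of chromosome 12 from 75714248 to 75735729, and its start region spanned 75734863 to 75735829. The −log10 q was 18.8 and 27.9 in WT, and the Sphk2 KO values of 7.24 and 48.0 lay on either side of them. The fold enrichment showed the same order, with 6.37 and 7.09 (WT) against 4.6 and 10.3 (Sphk2 KO). The ranks among shared regions were 12112 and 10702 (WT) against 14323 and 7924 (Sphk2 KO), and they overlapped by each of the 3 scores. Summits lay 13 or 14 bp into the gene in 3 libraries and 524 bp into it in Sphk2 KO replicate 1. A weak region inside the gene, 75727542 to 75727813, was called in WT replicate 2 (3.49) and Sphk2 KO replicate 2 (6.52). At the start region the Sphk2 KO libraries differed more from each other than from either WT library in −log10 q.

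**Figure D3:**
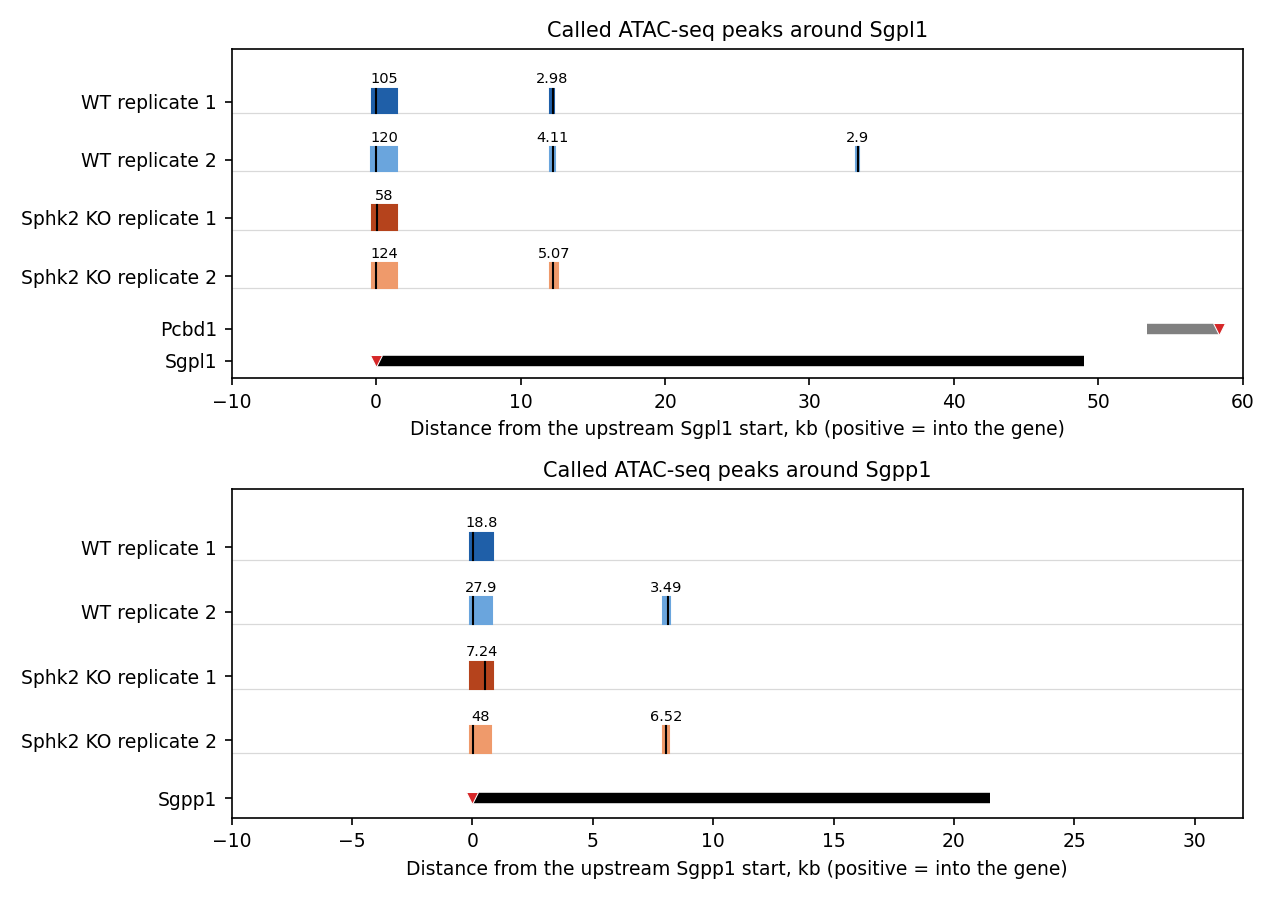
Called peaks (coloured bars, black line = summit, number = −log10 q) in the 4 libraries by distance in kb from the listed starts (red triangles) of Sgpl1 and Sgpp1. The start regions are called in all 4 libraries, and the weak regions inside the genes in 1 to 3 of them.

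Sphk1 and Sgpp2 had no start peak in any library. Sphk1, the gene of the other kinase, lies on the plus strand of chromosome 11 from 116530836 to 116536675, and none of its 5 listed starts was within 1 kb of a peak. The only peak in its window was in WT replicate 1, at 116534269 to 116534454 inside the gene, 1953 bp past the nearest start. It was weak, with a −log10 q of 4.44, a fold enrichment of 3.72 and rank 22698 of 31507. Sgpp2, the second phosphatase gene, lies on the plus strand of chromosome 1 from 78309549 to 78420289, and no peak was called in the 130.741 kb of its window, which also takes in the end of Farsb. A region without a call may still be open below the threshold of the caller.

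Genes without called peaks were common in the series. Of all 21883 protein-coding genes, 47.8% had no start peak in any library and 42.7% had one in all 4. No region at all was found in 30.5% of gene windows, in 51.9% of the windows of the 5592 genes no longer than Sphk1, and in 20.5% of those of the 2126 genes at least as long as Sgpp2. The Sgpp2 start was rich in CpG, like the starts that carried a peak. Of the 2538 start windows with at least its 34 CpGs, 70.6% were under a region called in all 4 libraries and 21.5% under none. For the Sphk1 windows with 21 CpGs the corresponding shares of 8148 windows were 72.2% and 20.0%. For its window with 6 CpGs they were 51.0% and 40.7%, for that with 14 CpGs 67.7% and 23.7%, and for that with 15 CpGs 68.7% and 22.8%.

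Over the 5 genes together the number of peaks did not separate the genotypes. The windows held 7, 8, 6 and 8 peaks, or 7.5 ± 0.707 against 7.0 ± 1.41 (mean ± SD, n = 2 each). The exact permutation p (two-sided) was 1, and 2 libraries against 2 cannot give an exact p below 0.333. Of the 10 regions, 5 were called in all 4 libraries. Both WT ranks were better at 2 of the 5 (the starts of Sphk2 and Sgpl1) and both Sphk2 KO ranks at 1 (in Dbp), beside 21.2% and 22.2% of all shared regions. Regions are not replicates, so these counts carry no test.

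**Figure D4:**
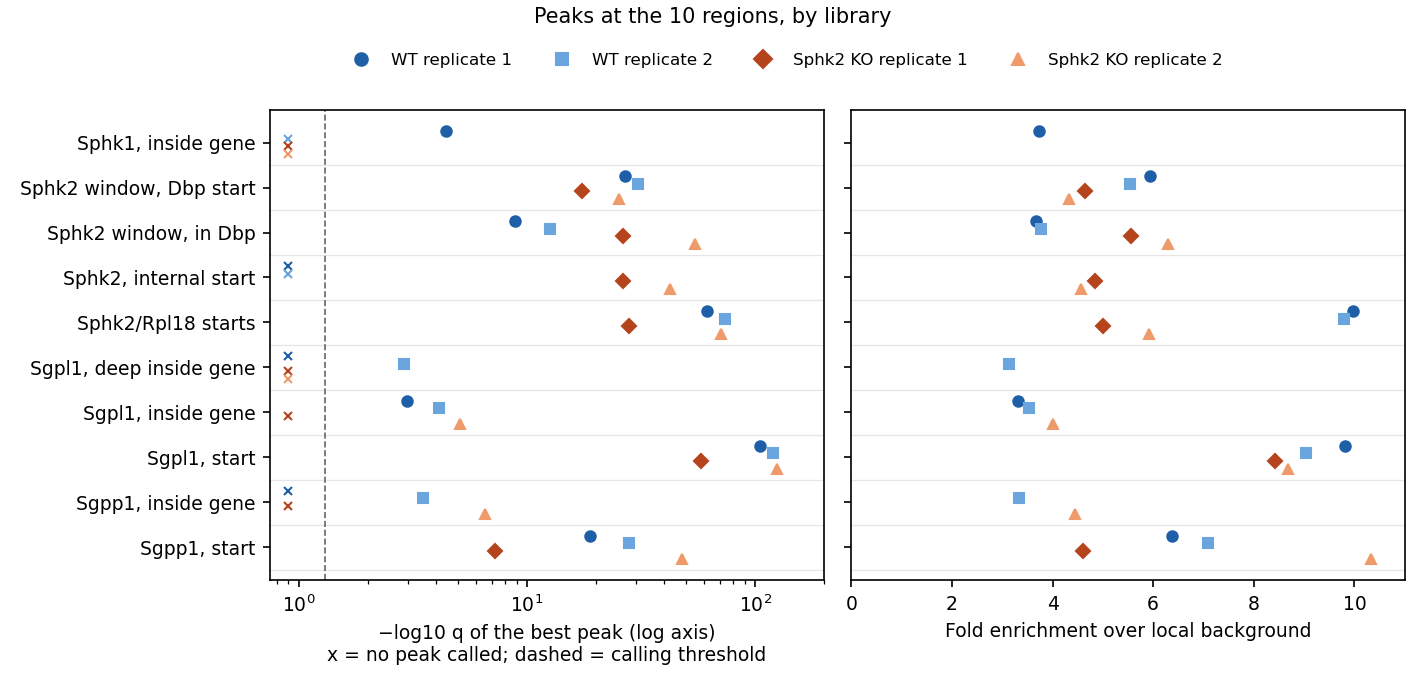
The −log10 q of the best peak (left, log axis, crosses mark libraries without a call) and its fold enrichment (right) at the 10 regions, 1 symbol per library. Values exist only for Sphk2 KO at the internal Sphk2 start. WT and Sphk2 KO separate on both scales inside Dbp, where Sphk2 KO is higher (−log10 q of 26.2 and 54.4 against 8.90 and 12.6), and at the Dbp start, where WT is higher (26.9 and 30.6 against 17.5 and 25.3). At the Dbp start the ranks by −log10 q among shared regions overlap (9956 and 10133 in WT, 9643 and 11717 in Sphk2 KO). By pileup both Sphk2 KO ranks are better there.

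The 34 other genes around S1P and sphingosine, in 7 lists, had 77 merged regions in their windows. Of these, 39 (50.6%) were called in all 4 libraries, beside 37.5% of all merged regions, and 6 (7.79%) were WT-only, beside 5.43%. None was Sphk2 KO-only, a pattern held by 0.605% of all merged regions and found in 1.01% of all gene windows, so a count of 0 says little in a set of this size. WT-only regions fell in the windows of 5 genes (14.7%), beside 7.89% of all protein-coding genes. They were at S1pr5, an S1P receptor (−log10 q 8.32 and 6.73 in WT), at Acer1, a ceramidase that frees sphingosine (4.26 and 5.42), and at the ceramide synthase genes Cers3 (16.3 and 11.3) and Cers4 (7.90 and 4.11). Abcc1, an exporter of S1P, had 2 outside its body (3.66 and 9.25, and 2.38 and 3.89).

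Start peaks of the pathway lists were called at 22, 23, 18 and 21 of the 34 genes, beside 48.9%, 49.9%, 43.5% and 48.2% of all protein-coding genes. Hdac1 and Hdac2, which encode histone deacetylases to which nuclear S1P made by SPHK2 has been reported to bind, had one in each library. So did 42.7% of all protein-coding genes. Genes that use the products of the lyase (Aldh3a2, Etnppl, Pcyt2 and Selenoi) had start peaks at 3 of 4 in each library. The 5 S1P receptor genes differed most between libraries, with 3, 4, 1 and 3. Exporters and the carrier had 1 of 4 in each library, ceramidases 2 of 5 in each, ceramide synthases 4, 4, 3 and 3 of 6 and lipid phosphate phosphatases 2, 2, 1 and 2 of 3.

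Genes whose start peaks ranked most like those of the members were found by the largest difference, over the 4 libraries, in the percentile of the best start peak within its list. For Sphk2 these were Rpl18, which has the same peak, Anxa11 (0.867 percentile points) and Prpf19 (1.41). For Sgpl1 they were Fdxr (0.769), Pdcl (0.769) and Pitpna (0.772). For Sgpp1 the nearest were further off, with Acad9 at 5.13, Spryd4 at 6.0 and Prkcb at 6.01 points. The percentiles of Sphk2 were 84.7, 86.1, 66.2 and 79.4. Those of Sgpp1 were 60.1, 65.9, 28.9 and 71.1. Lists of different length make such percentiles a description and no measure of change.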

How the data were processed

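Only peak lists, 1 per library, were analysed. The tools cutadapt, BWA and MACS2 and the build mm10 appear in the submitters' processing notes. Per the file headers, MACS 2.1.1.20160309 called peaks from the fragments of each library alone (paired-end mode), without a control, at a q-value of 0.05, with a local background of 10000 bp and 1 fragment kept per position. The deposited values are the pileup (a coverage signal, not scaled to depth), the −log10 of the p-value and q-value, and the fold enrichment, a ratio over local background, all by the authors' caller. On a Tn5 shift of the reads, the sources used here say nothing.

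Genes and starts came from RefSeq tables for GRCm38.p6 (21883 protein-coding genes; for 4392 without a listed start, either gene end was used). The tables give no exons. The merging, ranking and pattern counts were made with Python 3.11.15, pandas 2.3.3 and numpy 2.4.6 and tested on simulated lists. The local background was taken as (pileup + 1) / fold − 1. With this pseudocount of 1, 17.0% to 30.7% of peaks in each list sat at 1 lowest value. A model across regions could not be fitted without counts. All 5 members and all their regions are named, neighbours that overlap a window, pathway genes with a genotype-specific region, and the 3 genes most like each member. Neighbours not mentioned above are Fam83e and Spaca4 in the Sphk2 window and Ube2o in the Sphk1 window. The members and lists were chosen with earlier results of these data known. Alternatives were other thresholds, list lengths, windows, overlaps and scores, and each library left out. The result of 1 pathway list is not reported here by itself, although its genes are part of the pathway totals.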

Additional observations from a re-analysis of the deposited data

How the results depend on the processing

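The WT minus Sphk2 KO difference in peak number, 0.5, became -2.0 where peaks needed a −log10 q of 5 or more, -1.5 with the 20759 top peaks of every library and -0.5 with windows of 25 kb, and it ran from -0.5 to 1.5 with 1 library left out. The cause was not tested. The Sphk2 KO-only count was 2 with windows of 25 kb, which add a region on the Rpl18 side of Sphk2, 0 with 250 bp around summits, and 1 under each other setting, each library left out included. The WT-only count was 0 under each setting that kept all libraries and ran from 0 to 1 with 1 library left out, when a single library stands for its group. With the gene body alone, 3 regions were called in all 4 libraries and 0 ranked better in Sphk2 KO, since both regions at Dbp lie outside it. Ranked by pileup, 1 region stood better in WT and 3 in Sphk2 KO. Ranked by −log10 q with 1 library left out, the WT count ran from 2 to 3 and the Sphk2 KO count from 1 to 3. The log2 difference in local background at the Sphk2 start was 1.20 with a pseudocount of 0, 1.24 when scaled to the median of shared regions, and 0.94 to 1.61 with 1 library left out. The replicate 1 minus replicate 2 differences in log2 −log10 q hardly correlated between genotypes (r = 0.0111 across 16973 regions, which are not independent). This cannot show whether libraries of the same replicate number shared a batch. A replicate block keeps the difference of 0.5 by construction. With differences of 1 and 0 by replicate number, its exact sign-flip p could only be 1, and the smallest possible with 2 differences is 0.5. Sphk2 KO replicate 1 had the fewest fragments and the shortest list, and the part of depth in the absent calls was not tested.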
